A study of Pteromalus puparum with 9 samples.

Results

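A set of 75 ID stems was read in the salivary gland duct and in the carcass of the parasitoid wasp Pteromalus puparum and was almost lost from the gland reservoir. An ID stem is a transcript model's ID without its isoform number. Such a stem is no more than a stand-in for a gene, since stems from separate ID classes could lie on the same locus. The 75 stems, with 154 transcript models, were picked from the 21808 stems of the deposited count table by their mean level in each tissue. Levels are TMM-scaled CPM, that is, counts scaled to a common library size after adjustment by edgeR's trimmed mean of M-values. A member had at least 10 CPM in the duct and in the carcass, each at least 8 times the reservoir mean, with the duct and carcass means less than 4-fold apart. Since those means chose the stems, the levels of the 3 tissues are a description and carry no test. The deposited tables do not pair IDs with gene names, so the stems are given by ID, no role is stated for any of them, and the tissue labels were not checked against marker genes.

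Insect salivary glands are epithelial organs in which secretory cells release proteins into a lumen, and a duct carries the secretion to the mouthparts. A reservoir is a widened part of the gland that holds secretion before release. Duct epithelia of insects are commonly lined with cuticle and can modify the fluid that passes through them, and a carcass in dissection work is generally what remains of the body once the organs of interest are taken out.

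Each tissue was measured in 3 libraries of wild-type wasps, by strand-specific, paired-end bulk RNA sequencing, and all 9 libraries carry 1 batch label. The labels give no age, stage or sex, do not say what the carcass contained, and do not say whether a replicate was 1 animal or a pool. Each replicate is labelled as biological. The p-values rest on the variation among these replicates, and whether that is variation between single animals is not known. In bulk RNA, fewer cells of a type and less RNA per cell cannot be told apart. The libraries held 18690598 to 22640711 estimated counts. Where a library had no count for a stem, levels below 0.0909 to 0.21 CPM, depending on the library, could not be seen (3 counts of the scaled total). Such limits, like the Wilson intervals of shares, cover counting error only.

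Together the 75 stems held 1.65% ± 0.265 of all counts in the duct, 1.07% ± 0.669 in the carcass and 0.0207% ± 0.0122 in the reservoir (mean ± SD, n = 3 libraries each). Among the 3 duct libraries the share was 1.43%, 1.95% and 1.58%. In the reservoir libraries it was 0.0348%, 0.0133% and 0.014%. In the carcass libraries it was 1.83%, 0.755% and 0.61%, so that replicate 1 lay within the range of the duct and replicates 2 and 3 lay below it. Ppup118300, PB.5219 and PB.3830x carried much of these sums: they held 63.5%, 70.9% and 64.7% of the members' counts in duct replicates 1 to 3, 39.1%, 25.4% and 7.77% in the reservoir, and 53.6%, 18.1% and 18.5% in the carcass. Most of the members were far less abundant than the sums imply: the median member stood at 35.7 CPM in the duct (range 10.3 to 7414), 30.2 CPM in the carcass (10.7 to 2076) and 1.11 CPM in the reservoir (0 to 51.3).

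The same thresholds applied to the other pairs of tissues gave 8 stems for reservoir and carcass with a low duct, and 267 stems for duct and reservoir with a low carcass. Of all stems, 3875 reached 10 CPM in both the duct and the carcass. Among the 3798 of these that were not members and had a reservoir count, the median duct level was 1.02 times the reservoir level and the median carcass level 0.96 times. Among the 71 members with a reservoir count the duct stood at a median of 37 times the reservoir level (9.33 to 614) and the carcass at 29.5 times (8.58 to 283).

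**Figure D1:**
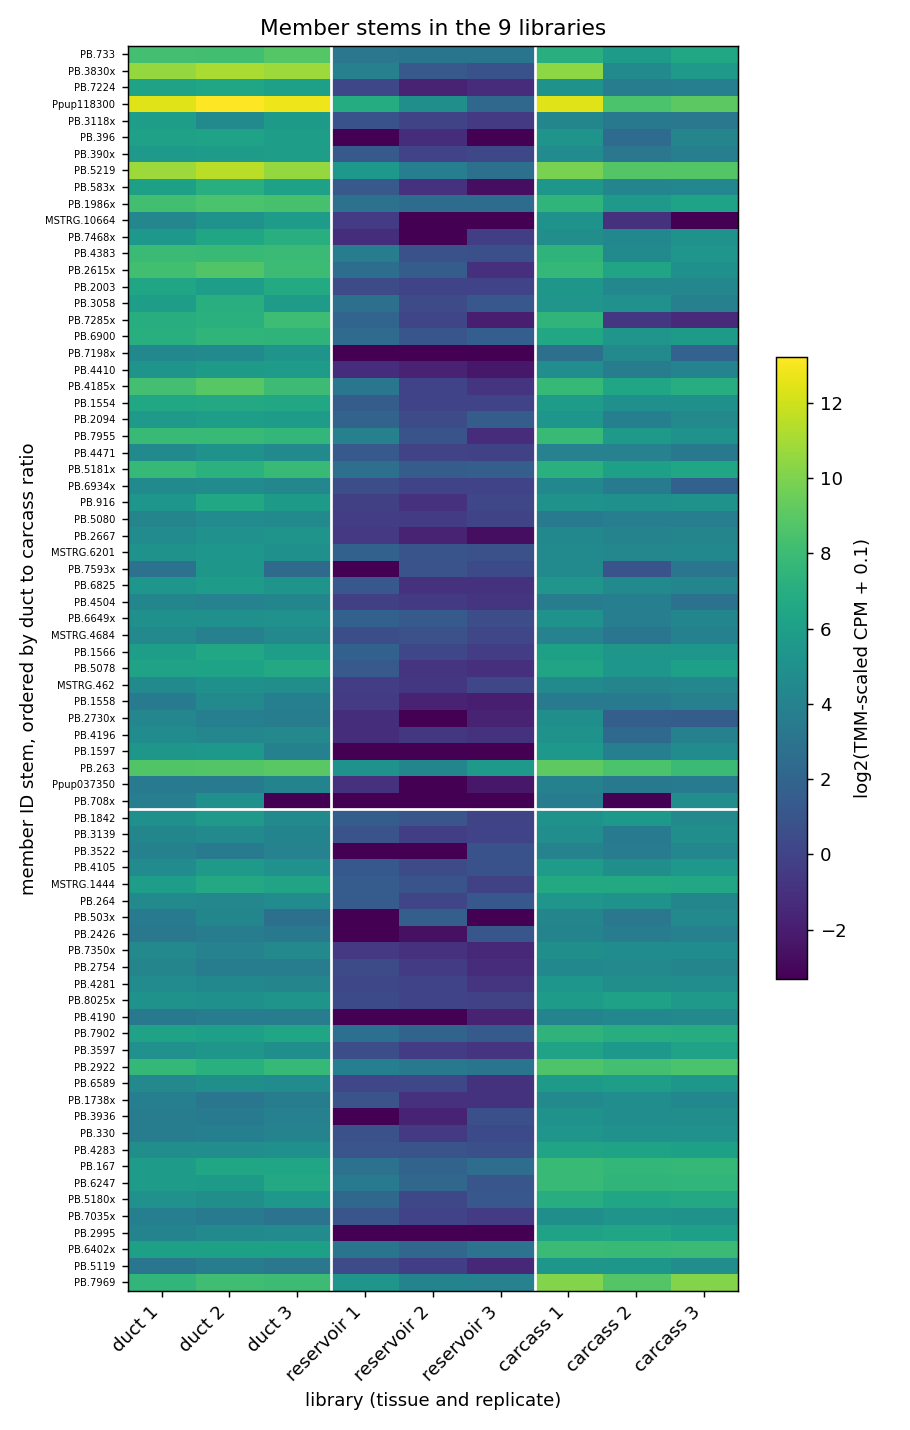
Level of each of the 75 member stems (rows, ordered from the highest to the lowest duct to carcass ratio) in the 9 libraries (columns), as log2 of the TMM-scaled CPM plus 0.1 on a colour scale; the white horizontal line separates the 46 stems that were higher in the duct from the 29 that were higher in the carcass. The 3 reservoir columns are dark in nearly every row, and in the upper rows carcass replicate 1 is often brighter than carcass replicates 2 and 3.

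Per unit of length, ranked by the average of the duct and carcass mean TPM, the most abundant member was Ppup118300, the only model of its stem. In the authors' TPM, which is corrected for transcript length, it averaged 14036 in the duct (3 libraries), 7653 in the carcass (3 libraries) and 92.8 in the reservoir (2 libraries, replicates 1 and 3). By counts it stood at 5448, 9520 and 7275 CPM in duct replicates 1 to 3. It stood at 119.5, 29.5 and 4.8 CPM in reservoir replicates 1 to 3. It stood at 5319, 365.8 and 541.6 CPM in carcass replicates 1 to 3. All 3 reservoir libraries lay below every duct and carcass library, and carcass replicate 1 lay far above carcass replicates 2 and 3. Without carcass replicate 1 the carcass mean was 454 CPM instead of 2076, so that the stem no longer met the rule on the distance between duct and carcass.

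PB.263, also a stem of 1 model, came next in that ranking, with mean TPM of 669 in the duct, 1123 in the carcass and 47.6 in the reservoir. Its CPM values were 419.6, 452.5 and 515.1 in the duct, 557.6, 372.9 and 242.4 in the carcass, and 35.4, 19.6 and 47.4 in the reservoir. Duct and carcass overlapped here, and the reservoir libraries lay well apart from both. PB.3830x, a stem of 3 models and the third in the ranking though above PB.263 in the duct (TPM of 891 in the duct, 443 in the carcass, 3.41 in the reservoir), behaved differently. It had 1535, 2175 and 1762 CPM in the duct and 14.6, 2.31 and 1.72 CPM in the reservoir. It had 1377 CPM in carcass replicate 1 against 24.4 and 50.4 CPM in carcass replicates 2 and 3, so that its carcass mean of 483.9 ± 773 CPM (SD, n = 3) rested on 1 library.

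By TMM-scaled CPM 46 members were higher in the duct and 29 in the carcass, but that split moved with the scaling: it was 39 and 36 with library size alone and 25 and 50 in the authors' TPM. The median member's log2 difference of duct minus carcass was 0.44 after TMM scaling, 0.04 with library size alone and -0.53 in TPM. Over the 3875 stems with at least 10 CPM in both tissues the same medians were 0.15, -0.3 and -0.86. A change of scaling moves members and background largely together, so nothing is read from their similar distance in each. The reservoir had the lowest level of the 3 tissues in all 75 members under each of these scalings, upper-quartile scaling and DESeq2 size factors included. The rule's limit of 8 times the reservoir largely fixed that outcome.

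The members farthest apart between duct and carcass were PB.733 and PB.3830x on the duct side and PB.7969 and PB.5119 on the carcass side. PB.733 stood at 309.4, 293.8 and 462.9 CPM in the duct, 9.36, 8.35 and 8.68 CPM in the reservoir and 133.8, 53 and 93.9 CPM in the carcass, so the duct mean was 3.8 times the carcass mean. PB.7969 stood at 187.8, 279.3 and 253.2 CPM in the duct, 40, 17.3 and 16.1 CPM in the reservoir and 1135, 439.6 and 1154 CPM in the carcass, a carcass mean 3.79 times the duct mean. Neither stem's tissues overlapped. PB.5119 had 8.78, 12.9 and 9.37 CPM in the duct, 1.26, 0.747 and 0.269 CPM in the reservoir and 43.7, 42.9 and 27.4 CPM in the carcass, and it was also the member nearest to the limit of 10 CPM, with a duct mean of 10.3 CPM.

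At the limit of 8 times the reservoir, PB.3058 (8.58 times, from the lower of its duct and carcass means) and PB.6649x (9.23 times) lay just inside. MSTRG.10621 and PB.4799x lay just outside, at 7.74 and 7.73 times. PB.7425x fell outside on its carcass level of 9.55 CPM. Ppup082380, with 1347 CPM in the duct, 304 CPM in the carcass and 13.1 CPM in the reservoir, fell outside because its duct mean was 4.42 times its carcass mean. The lower of the duct and carcass means was under 16 times the reservoir mean in 25 members, 16 to 64 times in 39, and over 64 times, or without any reservoir count, in 11.

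No reservoir count was found for 4 members. PB.2995 had 17.9, 24.2 and 24.6 CPM in the duct and 74.5, 85.5 and 65 CPM in the carcass. Against 3 counts over the 3 reservoir libraries (0.063 CPM) its duct level was at least 353-fold higher than the reservoir level and its carcass level at least 1190-fold higher. PB.1597 had 42.3, 45.6 and 15.1 CPM in the duct, at least 545-fold higher, and its carcass values of 46.1, 14.2 and 25.2 CPM were at least 452-fold higher. The other members of this kind had replicates further apart in the carcass. PB.7198x had 20.8, 23.1 and 37.4 CPM in the duct and 6.74, 21.9 and 3.56 CPM in the carcass. PB.708x had 13.6, 32 and 0 CPM in the duct and 12.5, 0 and 29 CPM in the carcass, so 1 duct and 1 carcass library were as empty as the reservoir.

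In 72 of the 75 members every reservoir library lay below every duct and carcass library, a pattern found in 15.1% of the 12143 stems with enough counts to be tested. The rule chose on this contrast, so the count describes the members and is not evidence for them. The exceptions were PB.708x, PB.7285x and MSTRG.10664. In 31 members, 18 of them higher in the duct and 13 higher in the carcass, each single duct and carcass library reached 10 CPM and 8 times the highest reservoir library, a limit set after the values were seen.

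The median member spread more between replicates than the median of all stems read at 10 CPM (duct, carcass) or 1 CPM (reservoir). The median coefficient of variation of a member was 19.4% in the duct, 33.1% in the carcass and 59.7% in the reservoir (71 members with a count). It was 11.9% over the 4920 stems with at least 10 CPM in the duct, 15.7% over the 5132 stems with at least 10 CPM in the carcass, and 14.5% over the 9317 stems with at least 1 CPM in the reservoir. Counting error is larger at the members' low reservoir levels, and its part in that spread was not tested. Other sets also spread widely, mostly in tissues where they are low by definition. Among stems with a count, medians in duct, carcass and reservoir were 30.3%, 83.4% and 94.5% for duct-peaking stems (10 CPM, 8 times both others). They were 43.9%, 21.1% and 51.3% for carcass-peaking stems. Stems of duct and reservoir with a low carcass had 17%, 52% and 19.7%. In the carcass, where members are high by the rule, carcass-peaking stems thus had 21.1% beside 33.1% for the members. In the duct, duct-peaking stems had 30.3% and stems of duct and reservoir 17%, beside 19.4% for the members. In the carcass, the 29 members higher there had a median of 16.6%, and the 46 higher in the duct 46.7%.

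In the carcass the spread was mostly that of replicate 1. It held the highest of the 3 carcass values in 53 of 75 members (70.7%), against 30.6% of all stems with at least 10 CPM in the carcass. Replicate 1 was at least 2 times the mean of replicates 2 and 3 in 23 of the 46 members that were higher in the duct and in 0 of the 29 that were higher in the carcass. The median ratio of replicate 1 to that mean was 1.97 in the former and 1.15 in the latter. The carcass libraries enter both sides of this comparison, which was not tested. Replicate 1 was at least 2 times that mean in 4.52% of all stems with at least 10 CPM in the carcass. Among stems with a carcass count, it was so in 55.6% of duct-peaking stems and 37.4% of stems of duct and reservoir. Among carcass-peaking stems it was so in 2.72%. Without carcass replicate 1 the rule kept 52 of the 75 stems and added 0, and all 23 stems that were lost had been higher in the duct.

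**Figure D2:**
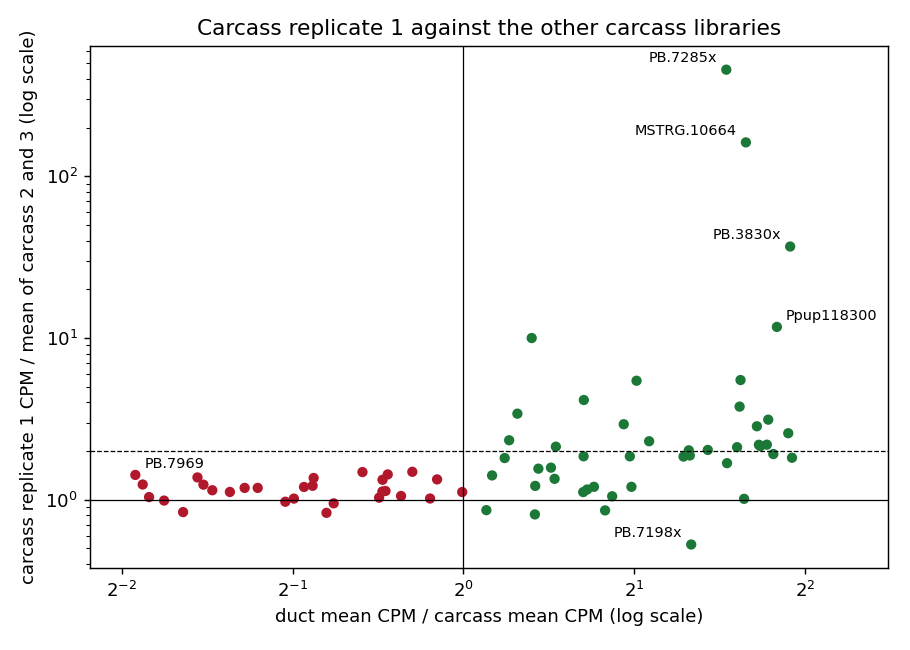
Ratio of duct to carcass mean CPM (x axis, log scale) against the ratio of carcass replicate 1 to the mean of carcass replicates 2 and 3 (y axis, log scale) for the 75 member stems; green points are higher in the duct, red points higher in the carcass, and the dashed line marks a ratio of 2. All 29 red points lie below the dashed line, 23 of the 46 green points lie on or above it, and PB.7285x reaches 457.

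In 7 members, singled out after their values were seen, carcass replicate 1 was at least 5 times the mean of the other carcass libraries. PB.7285x had 184.5 CPM in carcass replicate 1 but 0.515 and 0.293 CPM (17 and 7 counts) in replicates 2 and 3. Its duct values were 125.7, 146 and 267.3 CPM, so replicate 1 stood at 103% of the duct mean. MSTRG.10664, which lies 2 stems further down the deposited table, had 34.4, 0.424 and 0 CPM in carcass replicates 1 to 3 and 19.8, 34.5 and 55.3 CPM in the duct. The pair thus had the same order of libraries in both tissues. The other members of this kind were PB.3830x, Ppup118300, PB.2730x, PB.4383 and PB.7955, whose levels in carcass replicate 1 were 71.4% to 189% of their duct means. The 7 stems summed to 7355 CPM in carcass replicate 1, 468 CPM in replicate 2 and 671 CPM in replicate 3. The remaining 68 members summed to 6930, 4156 and 4965 CPM.

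Other stems that were abundant in the gland were compared in the same libraries. The 128 stems peaking in the duct (at least 10 CPM and 8 times both other tissues) summed to 4383 CPM in carcass replicate 1, 1870 CPM in replicate 2 and 1533 CPM in replicate 3, or 14.1%, 6.02% and 4.94% of their mean duct sum. The 267 stems of duct and reservoir stood at 3.98%, 1.8% and 4.43% of their duct sum in carcass replicates 1 to 3, so by their sum replicate 1 did not exceed replicate 3. Stem by stem, replicate 1 was the highest carcass library for 85 of the 124 duct-peaking stems and 175 of the 265 stems of duct and reservoir with a carcass count. The 75 members stood at 84.5%, 27.3% and 33.3% of theirs. Both comparison sets were defined by a low carcass mean, which caps their carcass percentages. The part of gland RNA in the carcass values of the members was not tested.

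**Figure D3:**
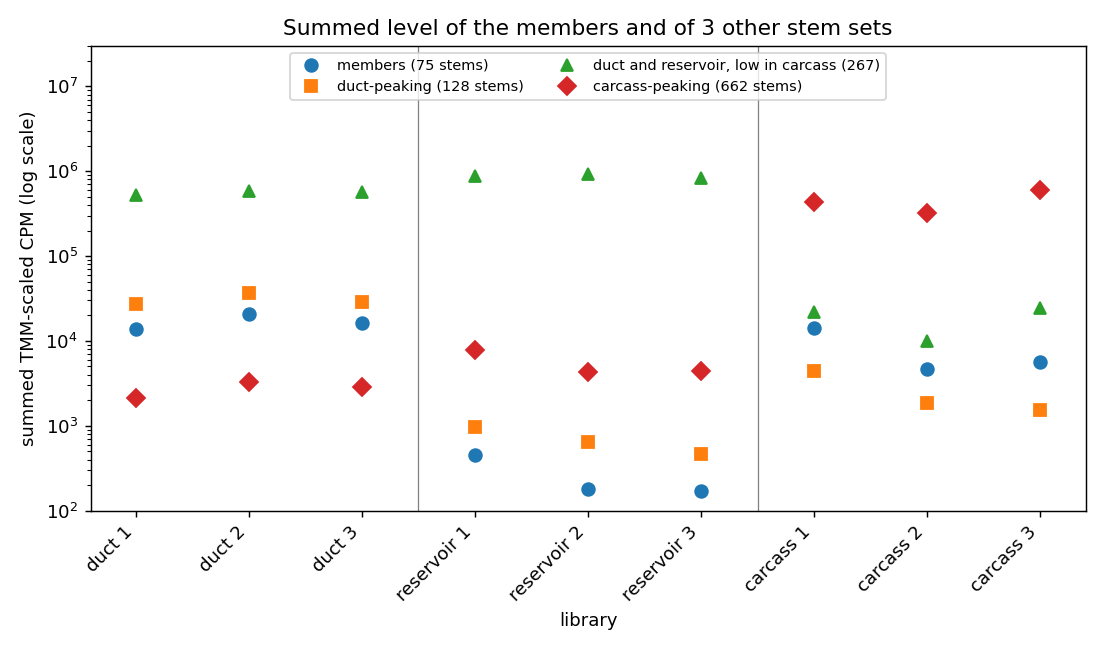
Summed TMM-scaled CPM (log scale) per library for the 75 members and for 3 sets of stems defined by the same limits of 10 CPM and 8-fold; each point is 1 library. In the reservoir the members sum to 457 CPM in replicate 1 and to 178 and 171 CPM in replicates 2 and 3, and in the carcass to 14284 CPM in replicate 1 and to 4624 and 5637 CPM in replicates 2 and 3.

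The traces left in the reservoir were also uneven. Reservoir replicate 1 held the highest of the 3 reservoir values in 56 of the 71 members with a count (78.9%), against 36.2% of the 9317 stems with at least 1 CPM in the reservoir. The members summed to 2.7%, 1.05% and 1.01% of their mean duct sum in reservoir replicates 1 to 3. The duct-peaking stems summed to 3.09%, 2.07% and 1.48% of theirs in the same libraries. The 662 stems peaking in the carcass summed to 1.72%, 0.958% and 0.978% of their carcass sum, so replicate 1 had the highest level in all 3 sets. The part of RNA from neighbouring tissue in these traces was not tested.

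Isoform shares within a stem were not used to choose the members. The low reservoir totals were, so the usage tests against the reservoir are not independent of that choice. Of the 32 members with more than 1 model, 28 had at least 2 models with enough counts for a test of isoform usage. The test asks whether the counts of a stem are divided over its models differently in 2 tissues (the F test of diffSplice in limma after voom, Benjamini-Hochberg adjusted over all 4152 stems tested). Usage differed between duct and carcass in 8 of the 28 members, where 16.4% of all tested stems were called. All isoform shares are percentages of the counts of the tested models. Usage was called between reservoir and duct in 2 members (5.08% of all stems) and between reservoir and carcass in 3 members (17.4% of all stems). Both counts include PB.4190, whose tested models had no reservoir count, so its calls there say nothing of usage. Duct and carcass had the same leading model in 22 of the 28 members. The median distance between a duct and a carcass library, as the percentage of the counts of a stem's tested models that would have to change model, was 11.5%, beside medians of 4.46% between duct libraries and 6.72% between carcass libraries. That distance exceeded both within-tissue distances in 15 of the 28 members. Distances and leading models were computed for members only. Without the share over all tested stems, these counts do not show whether the members differ from other stems.

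PB.4190 changed its leading model. In the duct PB.4190.3 had 196, 262 and 242 counts and PB.4190.4 had none. Counting error alone allows PB.4190.4 a share of up to 1.53%, 1.15% and 1.24% in duct replicates 1 to 3. Over the 700 duct counts pooled, with spread between replicates left out, the limit is 0.429%. In the carcass PB.4190.4 had 462, 608 and 503 counts and took 96.3% ± 1.92 of the counts of these 2 tested models (SD, n = 3), and PB.4190.3 kept 7, 30 and 26 counts (limma adjusted p = 3.89e-08). Including a model that did not pass the filter on low counts, the stem had 196, 262 and 242 counts in the duct and 501, 683 and 534 in the carcass. The summed stem stood at 10.1, 12.4 and 12.4 CPM in the duct and at 17.9, 20.7 and 22.4 CPM in the carcass, so that all carcass libraries lay above the duct and the carcass mean was 1.74 times the duct mean. In the authors' TPM the stem averaged 2.8 in the duct and 11.8 in the carcass. Neither of the tested models had a reservoir count, so the calls of PB.4190 against duct (limma adjusted p = 0.00111) and carcass (limma adjusted p = 0.00909) rest on empty reservoir libraries and say nothing of usage there.

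PB.8025x and PB.167 followed by adjusted p. In PB.8025x the leading model of both tissues, PB.8025.6x, held a share of 67.3% ± 9.23 in the duct and 31.1% ± 4.03 in the carcass, where PB.8025.2x (23.5% ± 3.27, against 6.35% ± 0.891 in the duct) and PB.8025.5x (13.7% ± 3.84, against 0.913% ± 0.791) took more (limma adjusted p = 5.78e-06). In PB.167 the model PB.167.8 took 50.5% ± 3.97 in the carcass and 24.5% ± 6.06 in the duct, while PB.167.5 took 7.82% ± 1.55 and 20.9% ± 9.02 (limma adjusted p = 2.71e-05, but 0.362 with edgeR's diffSpliceDGE).

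The other members called between duct and carcass were PB.5080, PB.7468x, PB.7035x, PB.2922 and PB.3936. In PB.7468x the duct libraries read PB.7468.20x, at 61.7%, 80.2% and 81.9%, and the carcass libraries read PB.7468.10x, at 58.1%, 69.6% and 59.3% (limma adjusted p = 0.000272). PB.7468.20x had 11.4% of the counts in carcass replicate 1 (95% Wilson interval 9.39 to 13.8), 0.714% in replicate 2 (0.305 to 1.66) and 1.71% in replicate 3 (1.02 to 2.85). In PB.7035x the model PB.7035.5x took 65.1% ± 10.3 in the carcass and 4.17% ± 7.22 in the duct (limma adjusted p = 0.00167). In PB.5080 the model PB.5080.5 took 33% ± 15.2 in the carcass and 0.186% ± 0.322 in the duct (limma adjusted p = 0.00012). In PB.2922 the leading model took 91.7% ± 2.73 in the duct and 78.5% ± 1.25 in the carcass (limma adjusted p = 0.00172, and 0.109 with diffSpliceDGE). PB.3936 passed only narrowly (limma adjusted p = 0.0401) and lost its call without duct replicate 2 or 3, reservoir replicate 1 or 2, or carcass replicate 2 or 3, with values of up to 0.191. Its adjusted p was 0.858 with diffSpliceDGE. The call was also lost with every model that had a count (limma adjusted p = 0.0606) and with the replicate number as a block (limma adjusted p = 0.19). It was lost with the 6 duct and carcass libraries alone as well (limma adjusted p = 0.056).

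**Figure D4:**
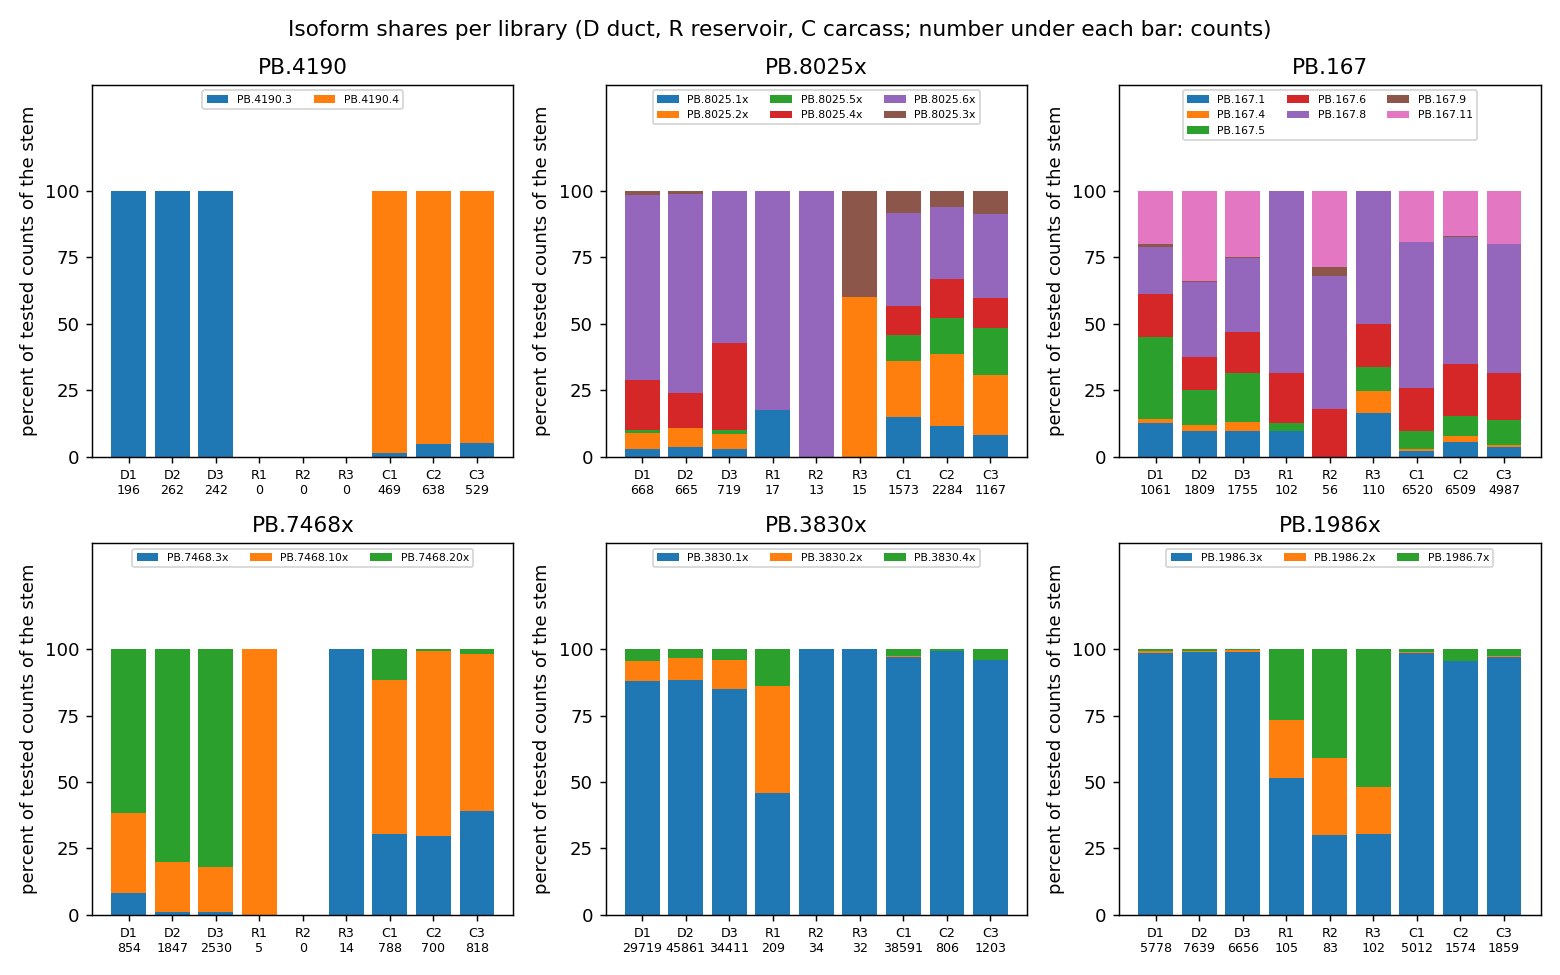
Share of each tested model in the counts of its stem's tested models (y axis, percent) for 6 members in the 9 libraries (D duct, R reservoir, C carcass, with replicate numbers; the count of the stem's tested models stands under each bar, and an empty place means no count). PB.4190 changes from PB.4190.3 in the duct to PB.4190.4 in the carcass, PB.7468x changes its leading model likewise, and PB.1986x is nearly all PB.1986.3x in duct and carcass but 51.4%, 30.1% and 30.4% in reservoir replicates 1 to 3.

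The most abundant members without a call between duct and carcass were PB.3830x and PB.7969. In PB.3830x the model PB.3830.1x led with 87.1% ± 1.85 in the duct and 97.5% ± 1.79 in the carcass (limma adjusted p = 0.618). Its minor model PB.3830.2x took 7.64%, 8.39% and 10.9% of the counts in duct replicates 1 to 3. In carcass replicate 1, where the stem stood at 75.5% of its duct level, PB.3830.2x had 118 of 38591 counts, 0.306% (95% Wilson interval 0.255 to 0.366), and it had no count in carcass replicates 2 and 3. In PB.7969 the model PB.7969.1 took 48.9% ± 3.31 in the duct and 79.7% ± 17.4 in the carcass, a difference that missed the threshold (limma adjusted p = 0.0564). It passed in 4 of 17 alternatives, 2 of them without carcass replicate 1 or 2 (lowest value 0.011). The others were models reaching 10 CPM in 3 libraries (limma adjusted p = 0.0345) and every model that had a count (limma adjusted p = 0.0498). The highest value over the alternatives was 0.181.

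The models of a stem sum to the total that the rule required to be low in the reservoir, so low reservoir levels of single models were largely fixed by the choice of members. Of the 79 tested models of these 28 members, 62 had a reservoir mean of at most an eighth of both the duct and the carcass mean, and 13 of at most an eighth of the higher one alone. The other 4 were PB.1986.2x, PB.1986.7x, PB.6649.1x and PB.3139.2. PB.1986.7x stood at 2.36 ± 0.451 CPM in the reservoir, 1.44 ± 0.347 CPM in the duct and 2.02 ± 0.14 CPM in the carcass. The leading model PB.1986.3x stood at 320.6 ± 34.1 CPM in the duct, 103 ± 71.7 CPM in the carcass and 2.37 ± 1.19 CPM in the reservoir (SD, n = 3). Its share of the counts of the stem's 3 tested models was 98.9% ± 0.278 in the duct, 97.1% ± 1.47 in the carcass and 37.3% ± 12.2 in the reservoir, where it had 54, 25 and 31 of 105, 83 and 102 counts of tested models. All 5 models of the stem had 106, 83 and 105 reservoir counts. The difference in usage passed the test for reservoir against duct (limma adjusted p = 0.000146) and for reservoir against carcass (limma adjusted p = 0.000296), and held without any 1 library (highest value 0.00326). Between duct and carcass it did not pass (limma adjusted p = 0.124). As PB.1986.3x held nearly all of the stem's duct and carcass counts, the rule itself required its fall in the reservoir. The tests against the reservoir are therefore not independent of the choice of members.

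PB.2922 was the third member called between reservoir and carcass (limma adjusted p = 0.0211), in a test that is likewise not independent of the choice of members. Its leading model took 98.4% ± 2.71 of the reservoir counts, nearer to the duct than to the carcass, and the call was lost without reservoir replicate 1 or 3 (highest value 0.113). In the 23 members with at least 30 reservoir counts over the 3 libraries, the pooled reservoir shares were nearer to the duct in 14 and nearer to the carcass in 9, with median distances of 15.1% and 20.6%. Where duct and carcass were more than 10% apart, the reservoir was nearer to the duct in 10 of 13 members. These pooled shares were not tested. They were computed for members only, so the counts do not show whether the members differ from other stems. A pooled share can also rest largely on 1 library: of the 151 reservoir counts of PB.4185x, 129 came from replicate 1.

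Of the 75 members, 45 carried PB IDs, 23 PB IDs with a trailing x, 5 MSTRG IDs and 2 Ppup IDs. Stems with a trailing x made up 30.7% of the members and 19.7% of all stems with at least 10 CPM in duct and carcass. The labels do not say what the ID classes mean. A single model was all that 43 members had, 57.3% of them, against 38.5% of stems with at least 10 CPM in both tissues. Effective length, read from the ratio of counts to TPM and set against the median model of each library, was 0.965 for the median member model (134 models with at least 10 counts in a library) and 1.09 for models of stems with at least 10 CPM in both tissues.

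Some members stood next to each other in the deposited table. Its row order follows the ID numbers within each class, which rose between 94.1% and 100% of successive stems, but the labels do not say whether it is the order along the genome. A member stem was directly next to another member in 14 of 75 cases (18.7%), whereas 48 of the 3875 stems with at least 10 CPM in duct and carcass, those 14 included, stood directly next to a member (1.24%). These 7 neighbouring pairs were PB.263 with PB.264, PB.390x with PB.396, PB.5219 with PB.4185x, PB.5180x with PB.5181x, PB.7350x with Ppup037350, PB.7468x with PB.2922, and PB.7593x with PB.3058. PB.263 with PB.264 and PB.5180x with PB.5181x also had consecutive numbers. PB.5219 stood at 1796, 2859 and 1572 CPM in the duct, 44.5, 13.5 and 6.74 CPM in the reservoir and 965.5, 446.5 and 452.6 CPM in the carcass. PB.4185x stood at 315.8, 493.7 and 259.8 CPM in the duct, 9.01, 0.883 and 0.485 CPM in the reservoir and 215.3, 85.2 and 127.7 CPM in the carcass. Both were highest in replicate 2 of the duct and in replicate 1 of the reservoir and the carcass. The 34 neighbours that are no members but had at least 10 CPM in duct and carcass stood at a median of 1.04 times the lower of both in the reservoir, against 1.16 times for the 3800 non-member stems at that level. Of these 34 stems 11 had a reservoir level under 50% of the lower of both (32.4%), against 289 of the 3800, these 34 included (7.61%). These differences were not tested. Whether neighbouring stems share reads was not tested.

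By stem totals 21 members were called between duct and carcass (edgeR's quasi-likelihood test, Benjamini-Hochberg adjusted p under 0.05 with a change of 1 or more on the log2 scale). Of these, 11 were higher in the duct, where 16.3% of 12143 tested stems were called in that direction, and 10 were lower, where 22% were. The libraries of the duct and the carcass did not overlap in 48 members, beside 62.8% of all tested stems. The reservoir was called lower than the duct in 70 members (10.9% of all tested stems) and lower than the carcass in 72 (27.5%). It was called higher than the duct in none of the members (6.24% of all tested stems) and higher than the carcass in none (15%). The rule used all 3 contrasts, and nothing is read from these counts.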

How the data were processed

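Bulk RNA of 3 tissues (carcass, and duct and reservoir of the salivary gland) was sequenced, with groups and replicate numbers taken from the labels (3 libraries per tissue). Per the submitters' processing notes Salmon 1.9 was used. Its transcript set, settings and genome build were not given in the sources used here. Values deposited by the authors are estimated counts per transcript model as whole numbers, not normalized, and rounding changed 0 values. The authors also deposited TPM, whose column for reservoir replicate 2 sums to 2000000, where the others sum to 1000000, and matches duct replicate 3 plus reservoir replicate 1 in 99.96% of models (within 2e-06). That column was not used.

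Counts of the 40026 models were summed per ID stem and scaled with TMM factors over all stems (edgeR 4.0.16, R 4.3.3). Stem totals were tested with edgeR's quasi-likelihood test and isoform usage with voom and diffSplice (limma 3.58.1), each fitted to all 9 libraries after filterByExpr, with Benjamini-Hochberg adjustment over all features and a threshold of 0.05. DESeq2 1.42.0 was an alternative. The scripts were tested on simulated data. The members, lists and tests were chosen with earlier results of these data known. No libraries of a tissue agreed within sampling noise (chi-square per degree of freedom of 36.5 or more), so all were counted.

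Members were named by a rule: the 3 highest by mean TPM over duct and carcass, the 2 highest by CPM without a reservoir count, the 2 largest and the 2 smallest duct to carcass ratios, the stems nearest the limits, the 3 lowest adjusted p values of isoform usage, the 2 most abundant members without a usage call, and runs of 3 or more consecutive IDs, of which there were none. Others were named after their values were seen. Marker lists by gene description were not run, since the deposited tables do not pair IDs with names.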

Additional observations from a re-analysis of the deposited data

How the results depend on the processing

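The number of members, 75, was 116 at 4 times the reservoir level, 48 at 20 CPM, 39 with duct and carcass less than 2-fold apart and 135 in TPM (39 of them shared), and 31 had every library past the limits, an alternative added after the data were seen. It ran from 52 to 92 with 1 library left out. With library size alone it was 108, 70 of them members. Merging stems of the same number with and without a trailing x gave 63, although such stems lie a median of 5831 stems apart in the table. Usage calls between duct and carcass numbered 5 with diffSpliceDGE and 7 to 10 with 1 library left out. Between reservoir and duct they numbered 1 with diffSpliceDGE, 1 under a stricter filter (models reaching 10 CPM in 3 libraries), 1 with only the 6 libraries compared, 8 with every model that had a count, and 2 with any 1 library left out. Between reservoir and carcass they numbered 7 with diffSpliceDGE, 12 with every model that had a count and 1 to 4 with 1 library left out, with 1 call without reservoir replicate 1 or 3. Calls by stem totals between duct and carcass ran from 17 to 32 with 1 library left out, with 32 without carcass replicate 1. The members' share of the duct was 1.95% in TPM. With 1 library left out it ran from 1.51% to 1.76% in the duct, from 0.0136% to 0.0244% in the reservoir and from 0.683% to 1.29% in the carcass. The cause of these changes was not tested.

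Same-numbered libraries of 2 tissues had correlations of deviations from -0.156 to 0.194 over tested stems, and the others from -0.161 to 0.156. The highest was that of reservoir replicate 1 with carcass replicate 1. With 3 libraries per tissue these values cannot decide whether the replicate numbers pair the libraries. With the replicate block the usage calls were 7, 2 and 4 for duct against carcass, reservoir against duct and reservoir against carcass, and 26 members were called by stem totals. Reservoir counts limit what can be said of isoforms there: the pooled reservoir shares were read only for the 23 of 28 members with 30 or more counts over the 3 libraries.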
